A study of Gallus gallus with 6 samples.

Results

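The miRNAs described are miR-126, miR-221 and miR-222, all of which have been studied in blood vessels. They were taken by name from a table of 667 mature miRNA rows, as every row of chicken miR-126, miR-221, miR-222a or miR-222b, either arm, whatever its values. The rule found 7 rows: gga-miR-126-3p, gga-miR-126-5p, gga-miR-221-3p, gga-miR-221-5p, gga-miR-222a, gga-miR-222b-3p and gga-miR-222b-5p. miRNAs are short RNAs that repress target transcripts, cut from a hairpin whose 2 sides give a 5p and a 3p arm; gga-miR-222a is listed without an arm.

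The data are 6 small RNA libraries of broiler abdominal fat (Gallus gallus, day 35), 3 from the diet with 50 IU of vitamin E and 3 from controls. The study fed 240 healthy female chicks, from the age of 1 day, 1 of 5 diets holding 0, 20, 50, 75 or 100 IU of a synthetic vitamin E, DL-α-tocopherol acetate. The treatment label of the control samples gives no dose. Whether each library is a different bird is not stated, and every p-value below therefore reflects variation among libraries that may be technical in part. Libraries are named by group and by the number in their title, vitamin E 1 to 3 and control 1 to 3.

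miR-126 is the best known miRNA of endothelial cells, the lining of blood vessels. In mouse and zebrafish its 3p arm represses Spred1 and Pik3r2, brakes on signalling from the growth factor VEGF, and is needed for intact vessels; in mouse the 5p arm represses Dlk1 and sustains endothelial proliferation. miR-221 and miR-222 are made from neighbouring genes, share a seed (the stretch that pairs with targets) in mammals, and repress KIT and the cell cycle inhibitor p27Kip1 (CDKN1B) in human cells. In rat vessels they are known for promoting smooth muscle proliferation, and in human endothelial cells for limiting angiogenesis. In the chicken gene table of assembly GRCg7b, MIR126 lies within the gene EGFL7, which encodes a protein secreted by endothelial cells, as it does in mammals. MIR221 and MIR222 lie within 10 kb of each other, inside the span of the uncharacterised gene LOC107055472, and MIR222B lies apart from them on another chromosome. That table lists the name gga-mir-222b for both MIR222 and MIR222B, and the sources used here do not give how reads that fit both were counted. The split of reads between miR-222a and miR-222b is therefore uncertain.

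The 6 libraries held 5028671 to 7357204 counts. Levels are given as normalised CPM, counts per 1e+06 of a library size scaled by edgeR's TMM factors, which ran from 0.860 in control 1 to 1.05 in vitamin E 3. They carry no length term, as mature miRNAs are of similar length. Control 1 stood apart from the others in its number of high values. Its CPM was at least 2 times the highest of the other 5 libraries for 22 of the 238 miRNAs tested (9.24%), against 0 to 6 for any other library, a count made after its miR-222a level had been seen. Each result that rests on control 1 is therefore given with and without it. The count covers high values alone, and the low TMM factor of control 1 raises its CPM. By chi-square per degree of freedom between pairs of libraries, control 3 lay about as far from the rest as control 1. Pairs with control 3 gave 1377 to 2624, and pairs with control 1 gave 1476 to 2624. In tissue libraries such as these, fewer cells of a type and less RNA per cell cannot be told apart.

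The order of levels spanned abundant to nearly undetected miRNAs. miR-126-3p came first in every library, followed by miR-222a and miR-221-3p, then miR-221-5p, miR-222b-3p and, at the limit of detection, miR-222b-5p and miR-126-5p. The ranges of miR-222a and miR-221-3p over libraries overlapped, 701 to 5685 against 484 to 990 CPM, although within each of the 6 libraries miR-222a had the higher count, by a ratio of 1.01 to 11.7. The last pair, at up to 1.21 and up to 0.174 CPM, also overlapped.

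**Figure D1:**
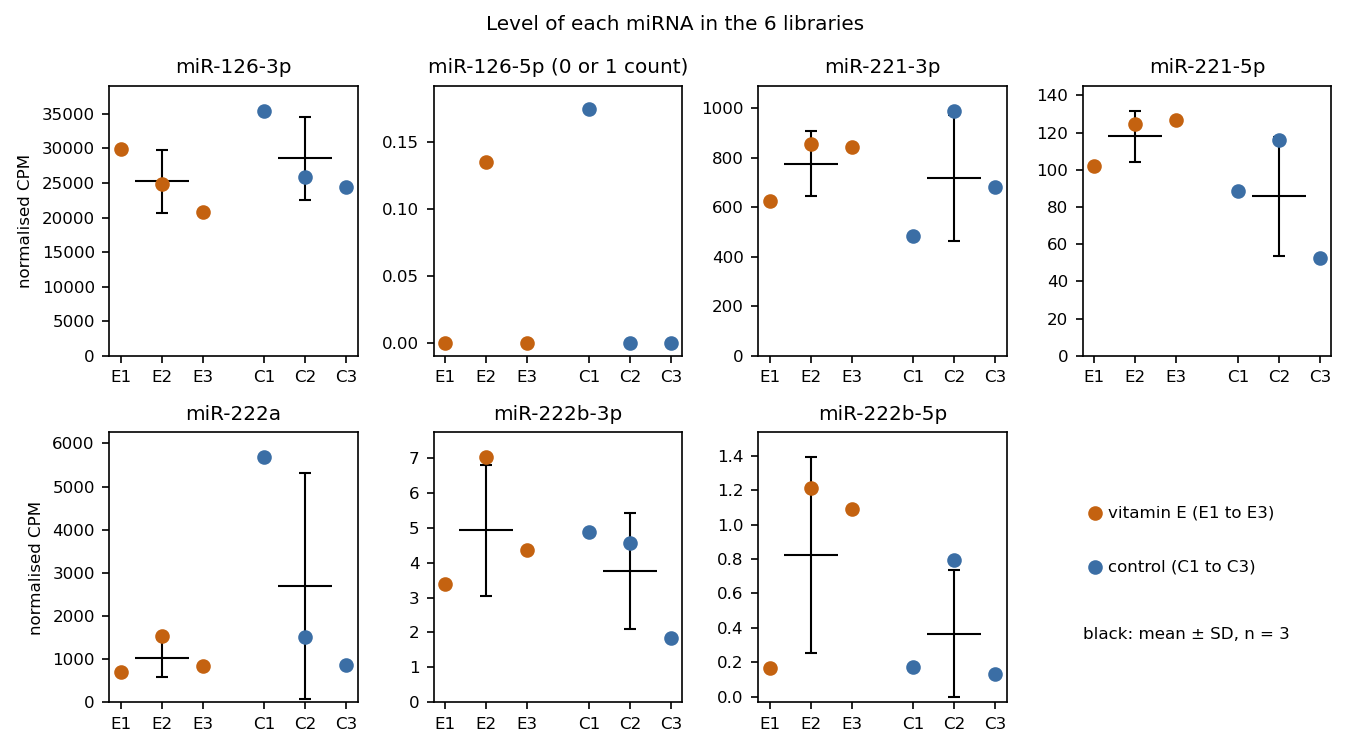
Normalised CPM (linear axis, a scale for each panel) of the 7 rows in vitamin E libraries E1 to E3 and control libraries C1 to C3, each point a library, with the mean and SD of each group in black except for miR-126-5p. The groups overlap in every panel, and control C1 stands far above the rest for miR-222a, at 5685 CPM against 1542 or less.

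miR-126-3p was among the most abundant miRNAs of the tissue, and it did not differ between the groups beyond the spread of the libraries. Its read count was 177333, 184395 and 134154 in vitamin E 1 to 3 and 203585, 131040 and 185593 in control 1 to 3. It ranked between 9th and 13th of the 667 rows in every library. On the normalised scale these counts gave 29955, 24889 and 20879 CPM in vitamin E 1 to 3, and 35488, 25943 and 24416 CPM in control 1 to 3. The lowest library was a vitamin E one and the highest was control 1, but the groups overlapped. The mean was 25241 ± 4548 CPM for vitamin E, against 28616 ± 6001 CPM for control (SD, n = 3). Vitamin E over control, the log2 fold change of -0.18 (SE 0.24, 95% interval -0.74 to 0.38) missed the threshold (edgeR quasi-likelihood, Benjamini-Hochberg adjusted p = 0.842 over 238 miRNAs). On the fold scale the interval runs from 0.600 to 1.30. Without control 1 the log2 fold change was -0.077, and the sign was negative in all 16 alternative fits. As a share of all counts in a library, the miR-126 rows held 2.62% ± 0.42 for vitamin E, against 2.73% ± 0.29 for control (SD, n = 3; two-sided exact permutation p = 0.8, Benjamini-Hochberg adjusted p = 0.8 over 2 groups of rows). The smallest p that 3 libraries against 3 allow is 0.1. The difference in share, -0.11 percentage points, turned to 0.051 without control 1 and to 0.095 without vitamin E 3. Spread over the 6 libraries was small for miR-126-3p, an SD of 0.26 in log2 CPM, and 202 of the 238 tested miRNAs had a larger one.

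miR-126-5p, the other arm of the same hairpin, had almost no counts in the table. The sources used here do not give which 5p sequence the authors counted against, or by what rule, and a rare arm cannot be told apart from an arm whose reads were not assigned to it. miR-126-5p had 1 count in vitamin E 2, 1 count in control 1 and 0 in each of the other 4 libraries. Those 2 counts stand against 1016100 counts of miR-126-3p, a 5p share of 0.000197% of the hairpin's counts (exact 95% interval 2.38e-05% to 0.000711%). Where no read was counted, up to 3 counts remain possible, which is 0.408 to 0.597 of the authors' TPM across libraries. Measured against those 3 counts, miR-126-3p was at least 43680-fold higher than miR-126-5p in control 2 and at least 61864-fold higher in control 3, the ends of the range over the 4 libraries without a 5p count. These bounds reflect counting error alone, because without molecular identifiers a read need not be a separate molecule. miR-126-5p did not pass the filter on low counts, was not tested, and at this depth no difference between the groups was detectable. The log2 ratio of the arms, with 0.5 added to each count, differed by -0.058 between the groups (two-sided exact permutation p = 0.8, adjusted p = 0.8 over 3 hairpins). With a library left out that difference ran from -0.46 (without control 1) to 0.38 (without vitamin E 2).

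Among hairpins with both arms listed and at least 1000 counts, miR-126 had the most uneven counts of the 2 arms. The same limit on how the arms were counted applies. Both arms were listed for 139 hairpins, and 69 of these had at least 1000 counts in all. A hairpin with a single listed arm could not be ranked, however uneven its arms. The rarer arm held a median of 0.767% of the counts in the 69, and miR-126 had the lowest share among them. The next lowest were let-7f, with 68 counts of the 3p arm against 1234934 of the 5p arm (0.00551%), and miR-26a, with 546 against 6204115 (0.00880%). Both hairpins have more counts in all than miR-126. Of the 69, 9 hairpins, miR-126 included, reached a total of at least 1016102. The 3p arm was the more abundant one in 23 of the 69 and the 5p arm in 46. This is a description of summed counts, with no test.

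**Figure D2:**
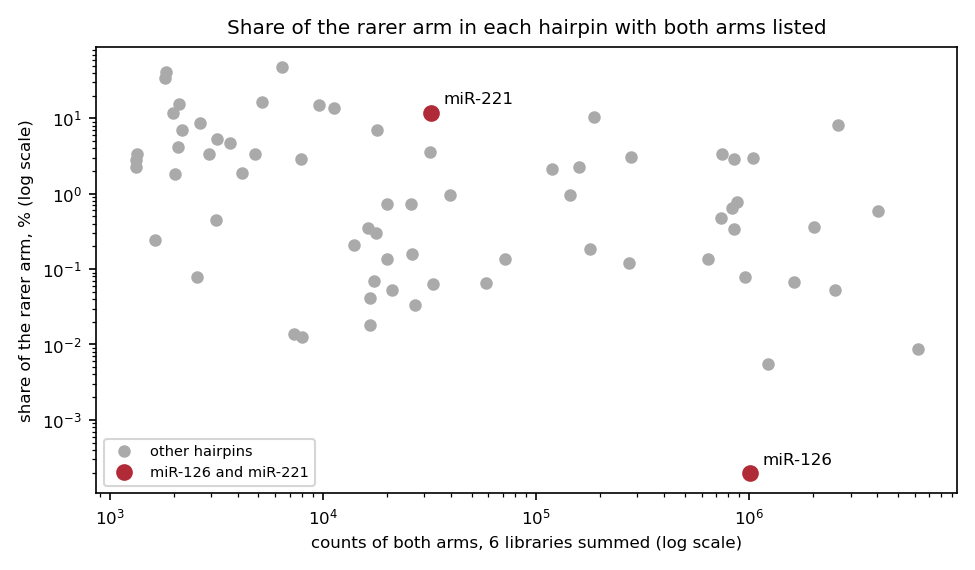
Share of the rarer arm (%, log axis) against the summed counts of both arms over 6 libraries (log axis) for 69 hairpins with both arms listed and at least 1000 counts, each point a hairpin. miR-126 lies lowest, at 0.000197%, below let-7f at 0.00551%, while miR-221, at 11.9%, lies among the hairpins whose rarer arm is well detected.

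miR-221 was present with both arms, and neither differed between the groups beyond the spread of libraries. miR-221-3p stood at 626, 857 and 844 CPM in vitamin E 1 to 3 and at 484, 990 and 679 CPM in control 1 to 3. The lowest and the highest library were both controls. The means were 776 ± 130 and 718 ± 255 CPM (SD, n = 3), with a log2 fold change of 0.11 (SE 0.31, 95% interval -0.61 to 0.83; edgeR quasi-likelihood, Benjamini-Hochberg adjusted p = 0.899). Without control 1, its lowest library, the log2 fold change turned to -0.17. Without vitamin E 3 it was -0.00050.

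miR-221-5p, the rarer arm, stood at 102, 125 and 127 CPM in vitamin E 1 to 3 and at 88.6, 116 and 52.5 CPM in control 1 to 3. The 2 lowest libraries were controls, while control 2 lay within the vitamin E range. The means were 118 ± 13.9 and 85.7 ± 31.9 CPM (SD, n = 3). For miR-221-5p the log2 fold change of 0.46 missed the threshold (SE 0.37, 95% interval -0.38 to 1.30; edgeR quasi-likelihood, Benjamini-Hochberg adjusted p = 0.782). It ran from 0.18 without control 3 to 0.78 without control 2, with Benjamini-Hochberg adjusted p of 0.369 to 0.982 over the 6 edgeR fits that leave out a library.

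The share of the 5p arm among miR-221 counts had a narrower range in the vitamin E libraries than in the controls, a difference in spread that was not tested. It was 14.0%, 12.7% and 13.1% in vitamin E 1 to 3, and their exact 95% intervals overlap. In control 1, 2 and 3 it was 15.5%, 10.5% and 7.17%, and the intervals of these 3 libraries do not overlap; all of these intervals cover counting error only. The log2 ratio of 3p over 5p was 2.71 ± 0.083 for vitamin E, against 3.08 ± 0.62 for control (SD, n = 3), a difference of -0.37 (two-sided exact permutation p = 0.4, adjusted p = 0.8 over 3 hairpins). Without control 1 the difference was -0.68 and its two-sided exact permutation p was 0.1, the smallest that 3 libraries against 2 allow.

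Of the 5 tested rows, miR-222a had the widest spread in log2 CPM, and its level turned on a single library. Its read counts were 4151, 11421 and 5454 in vitamin E 1 to 3 and 32612, 7702 and 6584 in control 1 to 3. That is 701, 1542 and 849 CPM with vitamin E against 5685, 1525 and 866 CPM in control. Control 1 lay 3.69 times above the next highest library, which was vitamin E 2. The other controls, 2 and 3, lay within the vitamin E range. The mean was 1031 ± 449 CPM for vitamin E, against 2692 ± 2613 CPM for control (SD, n = 3), and the log2 fold change of -1.39 (SE 0.68, 95% interval -2.95 to 0.18) did not pass the test (edgeR quasi-likelihood, unadjusted p = 0.0749, Benjamini-Hochberg adjusted p = 0.627). Without control 1 it was -0.27 (SE 0.39; edgeR quasi-likelihood, Benjamini-Hochberg adjusted p = 0.825). Over the other 5 edgeR fits that leave out a library it ran from -1.17 to -1.87. In log2 CPM the SD over the 6 libraries was 1.11, and 24 of the 238 tested miRNAs had a larger one.

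The high miR-222a of control 1 did not extend to its genomic neighbour. There were 1.12, 1.80 and 1.01 counts of miR-222a for each count of miR-221-3p in vitamin E 1 to 3, and 11.7, 1.54 and 1.28 in control 1 to 3. Thus 5 libraries lay between 1.01 and 1.80, and control 1 lay far above them. The same library had the lowest miR-221-3p level of the 6. Of all counts of miR-221 and miR-222 rows, miR-222a made up 90.8% in control 1 and 46.5% to 60.9% in the other libraries. For comparison, 43 pairs of tested miRNAs have genes that lie within 10 kb of each other without overlap in GRCg7b, where 153 of 155 miRNA names were matched. The log2 ratio within such a pair ranged over the 6 libraries by a median of 1.28, and by 3.55 for miR-221-3p with miR-222a, the third widest range. That width rests on control 1, as the log2 ratio of miR-222a over miR-221-3p lay between 0.0074 and 0.85 in the other libraries. The wider ranges were those of miR-34b-5p with miR-34c-5p (4.41) and miR-193b-3p with miR-365-2-5p (3.81). Counting error is larger in the first of these, with 57 counts of miR-34b-5p and 317 of miR-34c-5p over the 6 libraries. miR-221-3p had 28413 counts and miR-222a 67924. Names were matched to genes without the copy number, so miR-365-2-5p may come from a copy that does not lie beside miR-193b. The next widest ranges were those of miR-18b-5p with miR-92-3p (3.29) and miR-30c-5p with miR-30e-5p (2.95). In control 1, miR-365-2-5p, miR-92-3p and miR-30c-5p also stood at least 2 times above every other library. Neither miRNA of the widest pair did. Some miRNAs occur in several pairs, and the median and order of ranges are given only with control 1 included. These ratios were computed after the level of miR-222a in control 1 had been seen, and are a description with no test.

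In control 1, miR-222a ranked sixth of the 22 miRNAs that stood at least 2 times above every other library. Ahead of it were miR-130b-5p (5.01 times), miR-3525 (4.95), miR-30c-5p (4.62), let-7a-3p (4.42) and let-7c-3p (3.95), named here after their values were seen. miR-126-3p was also highest in control 1, at 1.18 times the next library in CPM. In the authors' TPM, which has no TMM scaling, it was close to vitamin E 1, at 30537 against 30342. Whether what sets control 1 apart has a part in the miR-222a value was not tested.

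**Figure D3:**
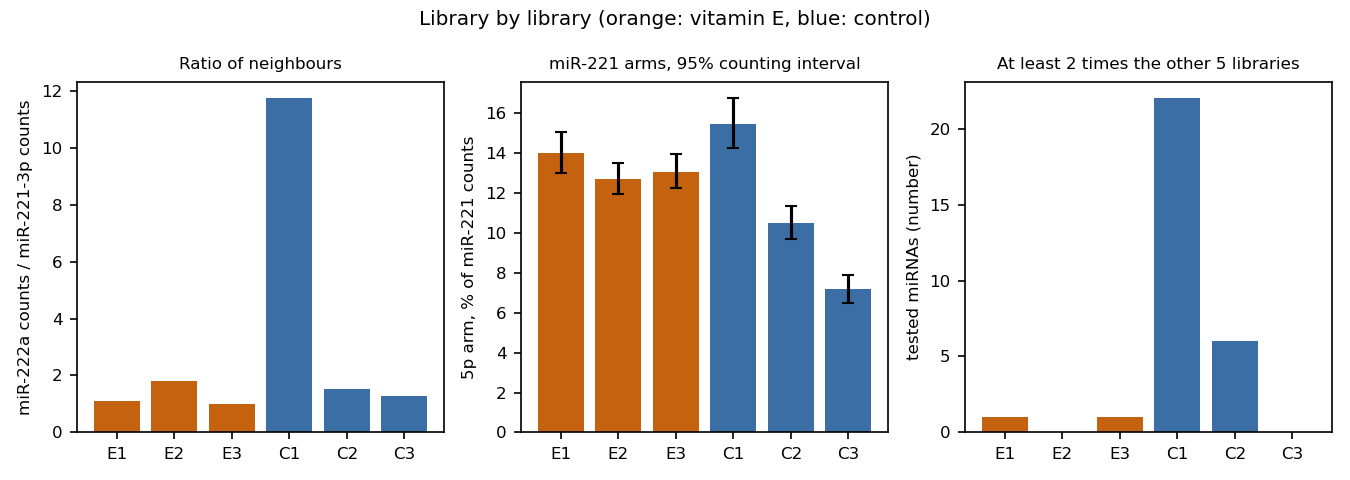
Bars for vitamin E libraries E1 to E3 (orange) and control libraries C1 to C3 (blue) show the ratio of miR-222a to miR-221-3p counts (left), the 5p arm as % of miR-221 counts with exact 95% counting intervals (centre), and the number of the 238 tested miRNAs at least 2 times above all 5 other libraries (right). Control C1 is high in the left panel (11.7) and the right panel (22), and the 5p share is spread more widely among controls (7.17% to 15.5%) than among vitamin E libraries (12.7% to 14.0%).

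miR-222b was rare. Counts of miR-222b-3p were 20, 52 and 28 with vitamin E and 28, 23 and 14 in control. The highest library was vitamin E 2 and the lowest control 3, with the others between them. This corresponds to 4.92 ± 1.88 and 3.76 ± 1.67 CPM (SD, n = 3), with a log2 fold change of 0.40 (SE 0.54, 95% interval -0.83 to 1.64; edgeR quasi-likelihood, Benjamini-Hochberg adjusted p = 0.842). Without control 3 it was 0.025 and without vitamin E 2 it was 0.034. miR-222b-3p was not high in control 1, at 4.88 CPM, where miR-222a was.

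miR-222b-5p had 1, 9 and 7 counts in vitamin E 1 to 3 and 1, 4 and 1 in control 1 to 3, and it did not pass the filter on low counts. In summed counts the 5p arm made up 12.2% of the miR-222b hairpin (exact 95% interval 7.92% to 17.8%) and 11.9% of miR-221 (11.5% to 12.3%). These intervals cover counting error of the summed counts only, not the spread of libraries. By library the 5p share ran from 3.45% to 20.0% for miR-222b and from 7.17% to 15.5% for miR-221. The log2 ratio of the miR-222b arms differed by -0.58 between the groups (two-sided exact permutation p = 0.6, adjusted p = 0.8 over 3 hairpins). The value rests on few counts: it was -0.11 without control 1, -0.18 without vitamin E 3, -1.04 without control 2 and -1.11 without vitamin E 1.

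Across the rows, 5 of the 7 passed the filter and were tested. None was called at an adjusted p of 0.05 (edgeR quasi-likelihood, Benjamini-Hochberg), where 0.420% of all 238 tested miRNAs were called. With all 6 libraries, the unadjusted p was under 0.05 for 0 of the 5 in edgeR and in limma, and for 1 in DESeq2, miR-222a (unadjusted p = 0.0335, DESeq2 adjusted p = 0.385). Without control 3, the edgeR fit gave miR-222a an unadjusted p of 0.0196 (Benjamini-Hochberg adjusted p = 0.453). Groups that do not overlap were seen for 0 of the 5 and for 13.9% of all tested. The log2 fold change was above 0 for 3 of them (both miR-221 arms and miR-222b-3p) and below 0 for 2 (miR-126-3p and miR-222a). Their median was 0.11, and the median of all 238 was -0.074. The miR-221 and miR-222 rows together held 0.201% ± 0.061 of all counts for vitamin E, against 0.323% ± 0.19 for control (SD, n = 3; two-sided exact permutation p = 0.5, adjusted p = 0.8 over 2 groups of rows). Without control 1 that difference shrank from -0.12 to -0.014 percentage points. The intervals leave room for sizeable differences: on the fold scale they run from 0.656 to 1.78 for miR-221-3p, 0.769 to 2.47 for miR-221-5p, 0.130 to 1.13 for miR-222a and 0.561 to 3.11 for miR-222b-3p.

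**Figure D4:**
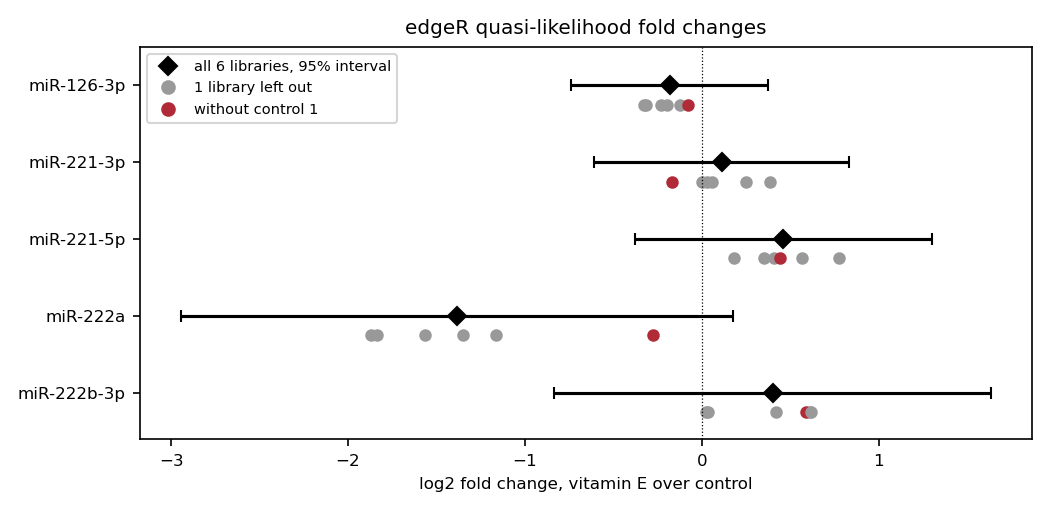
Log2 fold change (vitamin E over control) of the 5 tested rows with its 95% interval (diamonds and bars), and beneath each the value with 1 library left out (grey) or without control 1 (red), from edgeR. Every interval includes 0, and miR-222a moves from -1.39 to -0.27 when control 1 is left out.

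Other miRNAs with the most alike pattern over the 6 libraries were found by the root mean square difference of log2 CPM, each miRNA centred on its own mean. For miR-126-3p they were let-7f-5p (0.060), miR-26a-5p (0.13) and let-7k-5p (0.13), against a median of 0.52 over 233 miRNAs; the measure favours miRNAs that vary little when the member does too. For miR-221-3p they were miR-101-2-5p (0.16), miR-29b-3p (0.20) and miR-1677-3p (0.22), and for miR-221-5p miR-99a-3p (0.21), miR-20a-5p (0.22) and miR-34a-5p (0.22). For miR-222a they were the predicted miRNA novel_19 (0.39), miR-18a-3p (0.41) and miR-3525 (0.43). These differences are larger, but so was the median for miR-222a, at 1.08. For miR-221-3p, miR-221-5p and miR-222b-3p the medians were 0.60, 0.63 and 0.70. Of the miRNAs closest to miR-222a, miR-18a-3p and miR-3525 are among the 22 that stand out in control 1. miR-222b-3p lay closest to miR-30e-5p (0.33), miR-20a-3p (0.33) and miR-34a-5p (0.34). The 7 rows themselves were left out of this search.

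Further miRNAs known from endothelial cells and angiogenesis gave no call either, where 0.420% of all 238 tested miRNAs were called. Of a list of 32 names, 28 had rows, and 42 rows were tested, 22 with a log2 fold change above 0 and 20 below, with a median of 0.054; 0 were called in either direction (smallest Benjamini-Hochberg adjusted p 0.474, edgeR quasi-likelihood). The most abundant were miR-10a-5p, from a Hox gene cluster, at a log2 fold change of 0.21 (SE 0.22), miR-10b-5p, of the same family, at -0.28 (SE 0.29), and miR-100-5p, at 0.24 (SE 0.21). The smallest p belonged to miR-200b-3p, which represses the endothelial transcription factor ETS1 in human cells and is abundant in epithelia, at 93.6 ± 15.1 CPM for vitamin E, against 51.4 ± 4.75 CPM for control (log2 fold change 0.86, SE 0.31). miR-20b-3p followed at -1.21 (SE 0.53) and miR-200b-5p at 0.93 (SE 0.44), both at low levels. For vitamin E against control, the means were 1.26 and 2.90 CPM for miR-20b-3p and 3.34 and 1.72 CPM for miR-200b-5p. With a library left out, log2 fold changes ran from 0.046 (without vitamin E 3) to 0.35 for miR-10a-5p, from -0.52 (without control 2) to -0.15 (without control 1) for miR-10b-5p and from 0.12 (without control 1) to 0.35 for miR-100-5p.

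Lists of markers of other cells in fat were compared by summed level. Each sum covers all rows found for a list, also those that did not pass the filter. These were 9 rows for striated muscle, 8 for epithelial and 16 for fat miRNAs, and in the other lists every row found was tested. Summed levels with vitamin E and in control ran from 62062 to 70816 and 56296 to 89013 CPM for mural and stromal miRNAs (3 tested rows, of miR-199 and miR-214). For miR-143 and miR-145, also in that list, no row of that name was found. Summed levels ran from 9229 to 13318 and 10152 to 13553 CPM for leukocyte miRNAs (6 tested rows), and from 3099 to 5294 and 1405 to 3283 CPM for erythroid miRNAs (3 tested rows). For striated muscle (5 tested rows) they were 301 to 583 and 276 to 518 CPM, and for epithelial miRNAs (7 tested rows) 320 to 393 and 312 to 428 CPM. miRNAs abundant in fat, among them miR-26a and miR-148a, summed to 211759 to 244138 and 243444 to 287169 CPM (13 tested rows, 8 of 9 names). None of these is specific to fat cells, so the tissue label was not tested by them. Log2 fold changes above and below 0 numbered 5 and 0 for striated muscle (median 0.89), 5 and 2 for epithelial and 6 and 7 for fat miRNAs. They numbered 2 and 1 for mural and stromal, 3 and 3 for leukocyte and 1 and 2 for erythroid miRNAs. A sum rests mostly on the most abundant rows, so it need not show such a split. In these 6 lists 0 rows were called (smallest Benjamini-Hochberg adjusted p 0.138, edgeR quasi-likelihood). As 0.420% of all 238 tested miRNAs were called, that count says little about the lists. In CPM, control 1 was within the range of the other libraries for all of them except the fat list, where it was the highest. It was also the highest for the endothelial and angiogenesis list, at 306042 CPM against 240348 to 293113. That list is not specific to endothelial cells, and it shares miR-155, miR-200b and miR-214 with the leukocyte, epithelial and stromal lists. Its most abundant row, miR-10a-5p, alone averaged 113267 CPM for vitamin E and 98162 CPM for control. The TMM factor of control 1, the lowest at 0.860, raises its CPM. On library totals alone, control 1 was the highest for neither the fat list nor the endothelial list.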

How the data were processed

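Small RNA libraries of chicken abdominal fat, 3 with vitamin E and 3 controls by the treatment label, were analysed from a single table. It holds deposited read counts, which are whole numbers, for 551 named and 116 predicted mature miRNAs. Its deposited TPM columns are the same counts divided by the library total and multiplied by 1e+06, without miRNA length (largest deviation 4.07e-10). Not given in the sources used here are the kit, aligner, counting rule, miRNA reference and genome build.

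Counts were fitted in edgeR 4.0.16 (R 4.3.3) with TMM factors, the filterByExpr filter (groups; minimum count 10, minimum total 15) and the quasi-likelihood F test in its robust form. Benjamini-Hochberg adjustment covered the 238 miRNAs kept, leaving 429 untested. The code of the fit was run on simulated counts with large changes and less variation among libraries than here. Its power in these data was therefore not measured. The biological coefficient of variation was 0.441. Alternatives used DESeq2 1.42.0, limma 3.58.1, other scaling, other filters, a replicate block and each library left out. Arm ratios and shares of counts were compared by two-sided exact permutation over 20 relabellings. Intervals of shares of a hairpin are exact (Clopper-Pearson) at 95%. No pair of libraries agreed within sampling noise (chi-square per degree of freedom at least 405).

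The rows, lists and naming rule were chosen with earlier results of these data known. The rule names every row of the 3 families, the 3 miRNAs most alike to each tested row, and from the endothelial list the 3 most abundant and the 3 with the smallest p. The gene table of GRCg7b served only for names and neighbouring genes, because no source states the build behind the deposited values.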

Additional observations from a re-analysis of the deposited data

How the results depend on the processing

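No member was called in any of the 16 alternative fits (10 other settings and 6 with a library left out). In the 10 other settings, log2 fold changes ran from -0.27 to -0.061 for miR-126-3p, 0.012 to 0.27 for miR-221-3p, 0.38 to 0.64 for miR-221-5p, -1.49 to -0.90 for miR-222a and 0.32 to 0.54 for miR-222b-3p, which the filter of 10 CPM removed. With a library left out they ran from -0.33 to -0.077, -0.17 to 0.39, 0.18 to 0.78, -1.87 to -0.27 and 0.025 to 0.61 in the same order. Thus the sign turned for miR-221-3p. The number of all tested miRNAs called, 1 as reported, was 0 with upper-quartile factors, 8 with no filter, 7 with DESeq2, 3 and 5 with limma on log2(TPM + 1) and log2(TPM + 0.1), and 0 to 1 with a library left out. The difference in the log2 arm ratio ran from -0.46 to 0.38 for miR-126, -0.68 to -0.061 for miR-221 and -1.11 to -0.11 for miR-222b with a library left out. The difference in share ran from -0.32 to 0.095 percentage points for miR-126 and -0.20 to -0.014 for miR-221 with miR-222. The cause of these differences between settings was not tested.

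Against the reported fit, the median shift in log2 fold change was 0.107 with library totals alone and 0.129 and 0.132 with limma on TPM. Deviations from the group means were not shared by same-numbered libraries (correlations -0.16, 0.046 and -0.020), so the numbers are not taken as pairs. A replicate block gave 5 calls, none of them a member, and miR-222a stood at -0.93 (edgeR quasi-likelihood, Benjamini-Hochberg adjusted p = 0.864). The 2 to 23 counts of miR-126-5p and miR-222b-5p over all libraries limit what depth can show for them.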
